A study of Mus musculus with 33 samples.

Results

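The 10 genes described here, Arrdc2, Pla2g3, Wscd1, Rasd1, Ddit4, Klf9, Klf15, Errfi1, Nfkbia and Cebpd, are regulators and enzymes that have been linked to corticosteroid hormones. They were taken by symbol from the count table, where all 10 were present among 24061 gene rows, and all 10 passed the filter on low counts that left 14583 genes to test. The study profiled polyadenylated RNA of the mouse nucleus accumbens, a ventral striatal region involved in reward, in 33 libraries. These were taken as separate mice from the numbers in their titles, which name no animal. The study asked how the gut microbiome and morphine act together on transcription in that region. In each group the question for these genes was whether they took part in the rise seen when antibiotics and morphine were given together.

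All mice were C57BL/6J. Conventional mice, 7 to 9 weeks old and bought from a commercial breeder, drank either plain water (H2O) or a non-absorbed antibiotic mixture (Abx) that began 2 weeks before the injections and continued to the end. The mixture held vancomycin at 0.5 mg/mL, bacitracin at 0.5 mg/mL, neomycin at 2 mg/mL and the antifungal pimaricin at 1.2 µg/mL. Germ-free mice (GF) of matched age were bred in isolators at the authors' institution, so germ-free status and breeding site cannot be told apart. Each kind of mouse received saline or morphine at 20 mg/kg per day for 7 days, which gave 6 groups: water-saline (n = 6), antibiotics-saline (n = 6), germ-free-saline (n = 6), water-morphine (n = 5), antibiotics-morphine (n = 5) and germ-free-morphine (n = 5). Cages of 4 or 5 mice were assigned to water or antibiotics as a whole, and the labels do not tie libraries to cages, to extraction batches or to sequencing runs. An effect of antibiotics and one of cage can therefore not be told apart here, and the tests treat cage mates as independent.

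Glucocorticoids such as corticosterone enter cells and bind the glucocorticoid receptor (Nr3c1) and, in parts of the brain, the mineralocorticoid receptor (Nr3c2), which then act as transcription factors at response elements in DNA. Many genes that answer to the hormone encode brakes on other pathways, among them inhibitors of NF-kB, of growth factor receptors and of the kinase mTORC1, and others encode transcription factors that carry the response further. Several of these genes also answer to other stimuli, such as neuronal activity, low energy or cytokines, so a change in one of them does not by itself identify the hormone.

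Genes known to mark medium spiny neurons, the main neurons of the accumbens, were present in every library, with summed levels of 2098 to 6009 CPM (reads of a gene per 1000000 reads of the normalised library). Markers of cortical glutamatergic neurons varied among libraries of 1 group, from 13.1 to 675 CPM in water-saline, 87.6 to 1484 CPM in antibiotics-saline, 8.63 to 1182 CPM in water-morphine and 154 to 979 CPM in antibiotics-morphine mice to 8.74 to 360 CPM in germ-free-saline and 8.78 to 12.3 CPM in germ-free-morphine mice. Reads assigned to genes numbered 4861732 to 15286101 per library, and 10 of the 11 germ-free libraries (8104863 or fewer) were shallower than every conventional one (9330340 or more). The precision also differs between the genes, by their level: the lowest library held 9 reads of Pla2g3 and 13 of Cebpd, against 724 of Klf9.

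RefSeq promoters (build GRCm38.p6, 250 bases before to 50 bases after a start site) were found for 7 of the 10 genes, 10 promoters in all. Those of 3 genes are shown because they hold repeated or pathway-related motifs: Arrdc2 and Klf15, which were higher under antibiotics with morphine, and Nfkbia, which was not called. Capitals mark GC boxes (GGGCGG or its reverse complement) in Arrdc2, E-boxes (CACGTG) in Klf15 and the NF-kB consensus in Nfkbia. The Arrdc2 promoter is chr8:70839671-70839970 on the minus strand, the Klf15 promoter chr6:90462326-90462625 on the plus strand and the Nfkbia promoter chr12:55492598-55492897 on the minus strand.
Arrdc2: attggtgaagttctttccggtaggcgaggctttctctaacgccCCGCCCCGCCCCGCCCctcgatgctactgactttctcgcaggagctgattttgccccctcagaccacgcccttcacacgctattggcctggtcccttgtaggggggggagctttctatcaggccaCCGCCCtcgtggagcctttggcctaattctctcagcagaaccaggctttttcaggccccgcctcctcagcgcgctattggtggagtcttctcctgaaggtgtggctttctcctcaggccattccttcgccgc
Klf15: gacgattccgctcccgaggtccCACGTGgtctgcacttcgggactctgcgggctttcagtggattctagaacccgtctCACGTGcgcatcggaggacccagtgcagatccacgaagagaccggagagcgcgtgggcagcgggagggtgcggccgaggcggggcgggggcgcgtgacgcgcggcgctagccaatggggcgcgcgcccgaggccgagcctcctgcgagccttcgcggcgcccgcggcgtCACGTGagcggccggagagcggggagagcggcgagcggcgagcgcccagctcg
Nfkbia: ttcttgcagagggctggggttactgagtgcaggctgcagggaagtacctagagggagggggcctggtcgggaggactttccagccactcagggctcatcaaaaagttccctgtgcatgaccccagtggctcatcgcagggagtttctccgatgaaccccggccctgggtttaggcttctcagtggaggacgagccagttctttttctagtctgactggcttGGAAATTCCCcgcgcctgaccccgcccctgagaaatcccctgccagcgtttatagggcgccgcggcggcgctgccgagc
Both strands were searched for 6 motifs. The palindromic glucocorticoid response element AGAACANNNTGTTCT, which occurs in 0.00913% of 32851 promoters of the same length, and its half-site AGAACA, which occurs in 19.0%, were not found in any of the 10 promoters. The 3 E-boxes of Klf15 are of a motif that 7.15% of promoters hold, and the 4 GC boxes of Arrdc2, 3 of which overlap one another, are of a motif held by 35.7%. The NF-kB consensus in Nfkbia, the inhibitor of that factor, occurs in 8.46% of promoters. Errfi1 had a single CRE (TGACGTCA, in 1.79% of promoters) and 3 GC boxes in one of its promoters. These matches describe the letters in a short window and say nothing about binding.

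Of the 10 genes, 6 were higher in antibiotics-morphine than in water-saline mice by edgeR's quasi-likelihood test with Benjamini-Hochberg adjustment over all genes (Rasd1, Pla2g3, Arrdc2, Klf15, Errfi1 and Klf9). Wscd1 was lower, and Cebpd, Nfkbia and Ddit4 did not pass the threshold of 0.05. In this comparison 27.0% of all tested genes were called, 13.4% higher and 13.6% lower. The median log2 fold change was 0.45 over the 10 genes and 0.0083 over all tested genes. For 5 of the genes every antibiotics-morphine mouse lay above every water-saline mouse (Arrdc2, Pla2g3, Rasd1, Klf15 and Errfi1), and for Wscd1 every one lay below; ranges separated in that way for 10.3% and 10.6% of all genes.

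**Figure D1:**
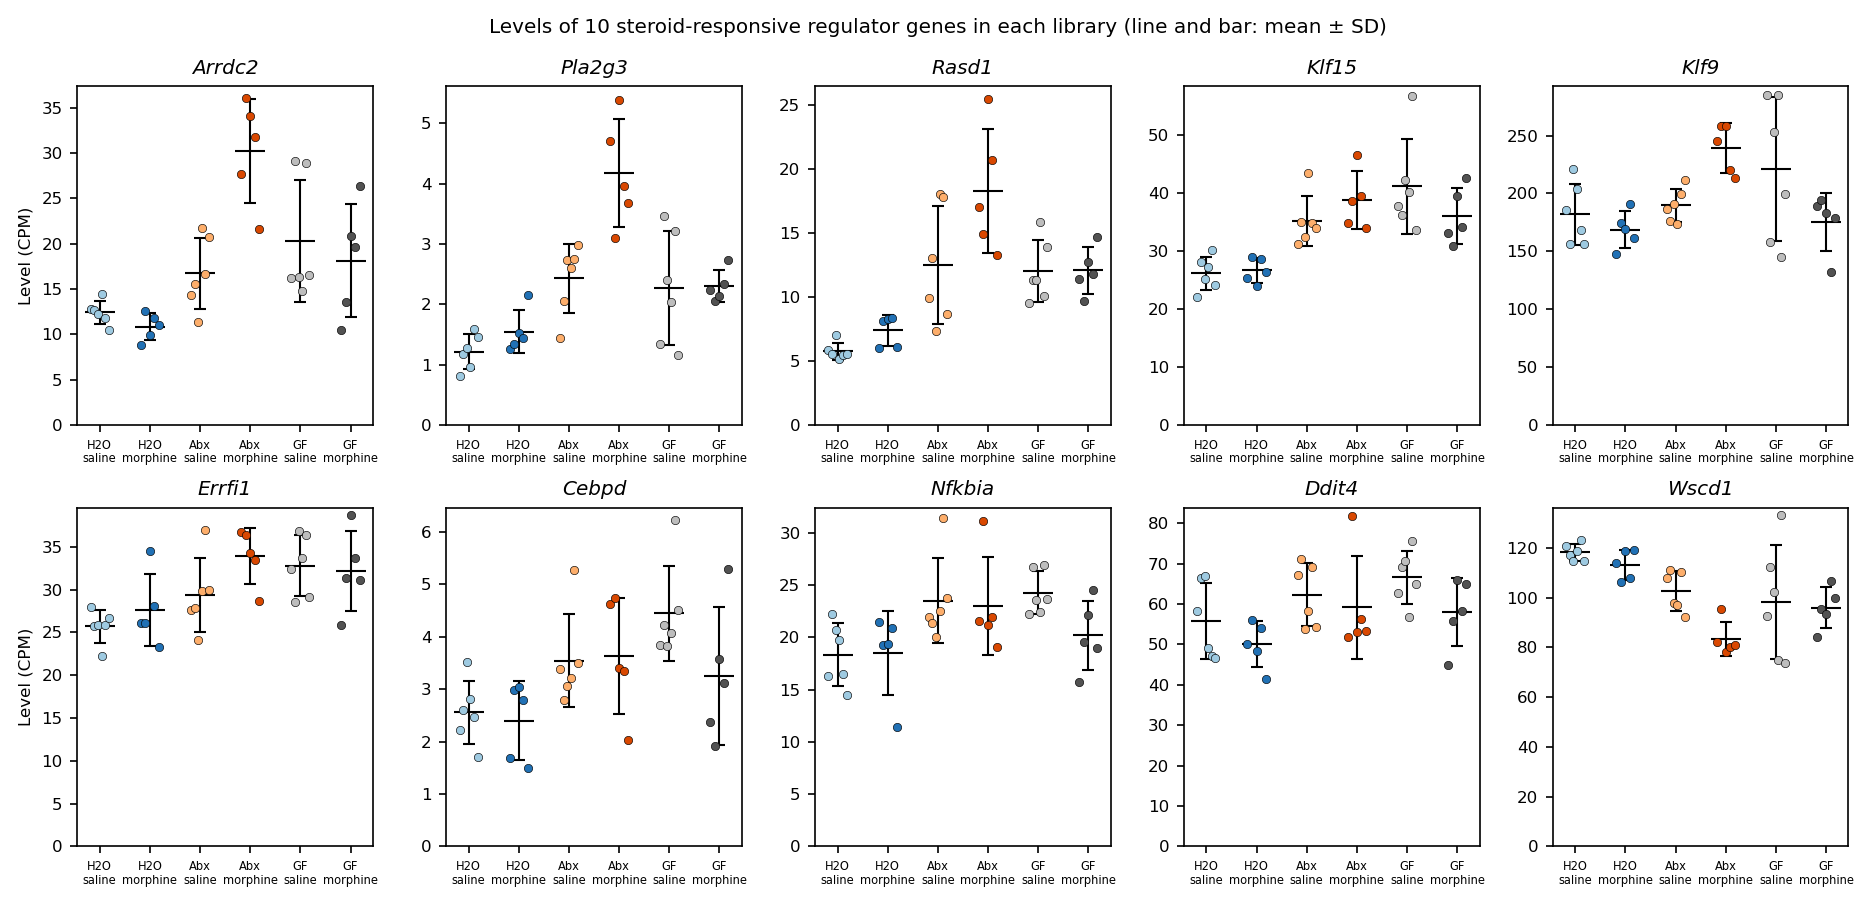
Level of each of the 10 genes in every library (vertical axis, CPM on a linear scale), by group along the horizontal axis; points are libraries and bars the mean ± SD. Arrdc2, Pla2g3 and Rasd1 have their highest group mean in antibiotics-morphine mice, Wscd1 its lowest, and for Ddit4 and Nfkbia all pairs of groups overlap except water-morphine and germ-free-saline mice.

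Arrdc2 encodes an alpha-arrestin, one of a family of adaptors that bring ubiquitin ligases to membrane proteins. Its level in antibiotics-morphine mice was 21.6, 27.7, 31.8, 34.1 and 36.03 CPM, and in water-morphine mice 8.87, 9.96, 11.04, 11.8 and 12.6 CPM. In water-saline mice it ran from 10.4 to 14.4 (median 12.5) CPM and in antibiotics-saline mice from 11.4 to 21.7 (median 16.1) CPM. All 5 antibiotics-morphine mice were above all water mice of either kind, and 4 of the 5 were above every antibiotics-saline mouse. The log2 fold change against water-saline mice was 1.28 ± 0.19 (SE, adjusted p = 1.44e-05), which is 2.44-fold. Against antibiotics-saline mice the log2 fold change was 0.85 ± 0.19 (SE, adjusted p = 0.00706) and against water-morphine mice 1.47 ± 0.20 (SE, adjusted p = 1.07e-05). Arrdc2 thus passed all 3 comparisons of the combined treatment. Antibiotics alone gave a log2 fold change of 0.43 (95% interval 0.046 to 0.82, adjusted p = 0.348) against water-saline mice, which was not called, although 4 of 6 antibiotics-saline mice were above the water-saline range. The other alpha-arrestin genes tested, Arrdc1, Arrdc3, Arrdc4 and Txnip, gave no call in any of the 4 comparisons among conventional mice just named.

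Pla2g3 encodes a secreted phospholipase A2, an enzyme that frees fatty acids from membrane phospholipids. With Cebpd, Pla2g3 was among the weakest signals of the 10 genes (9 to 68 reads). The Pla2g3 level was 3.11, 3.68, 3.96, 4.71 and 5.39 CPM in antibiotics-morphine mice and 1.27, 1.35, 1.44, 1.52 and 2.16 CPM in water-morphine mice. It ran from 1.45 to 2.99 (median 2.67) CPM in antibiotics-saline and from 0.820 to 1.59 (median 1.23) CPM in water-saline mice. The antibiotics-morphine range lay above all 3 other conventional groups. Its log2 fold change against water-saline mice, 1.77 ± 0.22 (SE, adjusted p = 1.5e-06), was the largest of the 10 genes and equals 3.41-fold. The difference was 1.42 ± 0.23 (SE, adjusted p = 9.57e-05) on the log2 scale against water-morphine mice and 0.78 ± 0.21 (SE, adjusted p = 0.0243) against antibiotics-saline mice. The last call was lost when antibiotics-saline mouse 1 or 2 or antibiotics-morphine mouse 1 or 3 was left out (log2 fold change 0.67 to 0.73, adjusted p = 0.0563 to 0.101). Antibiotics alone gave 0.99 (95% interval 0.52 to 1.46, adjusted p = 0.0804), with 5 of 6 antibiotics-saline mice above the water-saline range and no call, and without antibiotics-saline mouse 1, the lowest of that group, this became 1.10 (adjusted p = 0.0286). It was also called by DESeq2 (adjusted p = 0.0278), by limma voom (adjusted p = 0.0296) and with a correction for GC content and transcript length (adjusted p = 0.0488). Of 3 other phospholipases of related function that could be tested, Pla2g7 was lower in antibiotics-morphine than in water-saline mice, at -0.55 (adjusted p = 9.67e-05) on the log2 scale. That comparison called 27.0% of all genes.

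Rasd1, also called Dexras1, is a small GTPase named for its induction by dexamethasone, a synthetic glucocorticoid. The level in antibiotics-morphine mice was 13.3, 14.9, 17.03, 20.7 and 25.4 CPM, and in water-morphine mice 6.02, 6.06, 8.15, 8.31 and 8.38 CPM. It ran from 7.37 to 18.1 (median 11.5) CPM in antibiotics-saline mice and from 5.13 to 7.04 (median 5.54) CPM in water-saline mice, whose range was narrow. Every antibiotics-treated mouse, with saline or with morphine, was above every water-saline mouse. The log2 fold change of antibiotics-morphine against water-saline mice was 1.67 ± 0.19 (SE, adjusted p = 3.61e-07), or 3.17-fold, and against water-morphine mice 1.30 ± 0.20 (SE, adjusted p = 5.74e-05). Rasd1 was the one member called for antibiotics alone, at 1.11 ± 0.19 (SE, adjusted p = 0.00696), in a comparison where 0.117% of all genes were called (0.0617% higher and 0.0549% lower). That call was lost with the replicate number as a block, 1.16 (adjusted p = 0.0538), and with the cortical and septal marker means as covariates, 0.72 (adjusted p = 0.239). Morphine added 0.55 ± 0.18 (SE, adjusted p = 0.0705) to the antibiotics-saline level, with 2 of 5 mice above the antibiotics-saline range. This fell short of the threshold but passed it without antibiotics-saline mouse 4 or 5 or antibiotics-morphine mouse 5 (adjusted p = 0.0233 to 0.0429). It was also called by limma voom (adjusted p = 0.00533), with the marker covariates (adjusted p = 0.018) and with the GC and length correction (adjusted p = 0.0455). Among 8 relatives and partners of Rasd1, Rasl11b was higher in antibiotics-morphine than in water-saline mice, at 0.47 (adjusted p = 0.0336), and the G protein subunit Gnai2 lower, at -0.19 (adjusted p = 0.0407). Calls in that comparison covered 27.0% of all genes.

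Klf15 and Klf9 are zinc-finger transcription factors of the Krüppel-like family and textbook direct targets of the glucocorticoid receptor. The Klf15 level was 34.1, 34.96, 38.7, 39.6 and 46.7 CPM in antibiotics-morphine and 23.9, 25.4, 26.5, 28.6 and 28.9 CPM in water-morphine mice, and ran from 31.2 to 43.5 (median 34.5) CPM in antibiotics-saline and 22.1 to 30.2 (median 26.2) CPM in water-saline mice. Both antibiotics groups thus lay entirely above both water groups, and they overlapped each other. The log2 fold change of Klf15 in antibiotics-morphine mice was 0.57 ± 0.11 (SE, adjusted p = 0.00029) against water-saline and 0.54 ± 0.11 (SE, adjusted p = 0.00184) against water-morphine mice. Against antibiotics-saline mice it was 0.14 (95% interval -0.080 to 0.36, adjusted p = 0.494), with no call. For antibiotics alone Klf15 gave 0.43 (95% interval 0.21 to 0.64, adjusted p = 0.102), again with no call despite the separate ranges, which 0.665% of all genes showed in that direction. This difference was called by DESeq2, at 0.43 (adjusted p = 0.0262), by limma voom (adjusted p = 0.0131) and with the GC and length correction (adjusted p = 0.0417).

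Klf9 was covered by 724 to 4242 reads per library. Its level was 213, 220, 246, 258 and 258 CPM in antibiotics-morphine and 148, 162, 169, 174 and 191 CPM in water-morphine mice, and ran from 174 to 212 (median 189) CPM in antibiotics-saline and 156 to 221 (median 177) CPM in water-saline mice. All antibiotics-morphine mice were above all antibiotics-saline and all water-morphine mice, while 3 of 5 were above the water-saline range. Klf9 gave a log2 fold change of 0.50 ± 0.14 (SE, adjusted p = 0.0169) against water-morphine and 0.40 ± 0.13 (SE, adjusted p = 0.0261) against water-saline mice. The second call was lost with the replicate block, 0.31 (adjusted p = 0.175), and when water-saline mouse 4, 8 or 9 or antibiotics-morphine mouse 1, 2 or 3 was left out (adjusted p = 0.0514 to 0.0623). Against antibiotics-saline mice Klf9 gave 0.33 (95% interval 0.060 to 0.61, adjusted p = 0.14), which was called only when the test was run on these 2 groups alone (adjusted p = 0.0128) or by limma voom with quality weights (adjusted p = 0.0196). For antibiotics alone Klf9 gave 0.063 (95% interval -0.20 to 0.32, adjusted p = 0.904). Of 12 other Krüppel-like factors, 3 were higher in antibiotics-morphine than in water-saline mice, where 13.4% of all genes were higher. They were Klf13 at 0.40 (adjusted p = 0.00216), Klf7 at 0.52 (adjusted p = 0.0422) and Klf6 at 0.43 (adjusted p = 0.0484). None of the 12 was called against antibiotics-saline mice, where 5.43% of all genes were.

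Errfi1, also called Mig6, is a feedback inhibitor of the epidermal growth factor receptor. Its level was 28.6, 33.5, 34.2, 36.4 and 36.8 CPM in antibiotics-morphine mice and ran from 22.3 to 27.9 (median 25.8) CPM in water-saline mice, so that all 5 lay above all 6. Its log2 fold change was 0.40 ± 0.10 (SE, adjusted p = 0.00417), or 1.32-fold, and was no longer called with the cortical and septal marker covariates, at 0.22 (adjusted p = 0.106). Against water-morphine mice Errfi1 gave 0.29 (95% interval 0.075 to 0.51, adjusted p = 0.0716); water-morphine mouse 4, at 34.6 CPM, lay inside the antibiotics-morphine range, and without it the value was 0.39 (adjusted p = 0.0148). This difference was also called without antibiotics-morphine mouse 5 (adjusted p = 0.0347), by limma voom, at 0.34 (adjusted p = 0.00405), and with the GC and length correction (adjusted p = 0.0486). Errfi1 gave 0.21 (95% interval -0.00094 to 0.41, adjusted p = 0.241) against antibiotics-saline mice, and 0.25 (adjusted p = 0.0403) by limma voom. Among 8 genes of the receptor family and its regulators, the neuregulin receptor Erbb4 was higher in antibiotics-morphine than in water-saline mice at 0.84 (adjusted p = 0.000413) and the feedback inhibitor Spry4 at 0.46 (adjusted p = 0.011). The share of all genes called higher there was 13.4%.

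Cebpd, Nfkbia and Ddit4 were not called against water-saline mice by the same test, which does not show that they were unchanged. In that comparison 9 of the 10 members had an unadjusted p under 0.05, as did 5639 of the 14583 genes. For antibiotics alone the log2 fold change was 0.47 for Cebpd, 0.36 for Nfkbia and 0.16 for Ddit4, with no call. Cebpd encodes a leucine-zipper transcription factor of inflammation and fat cell development. Its level was 2.02, 3.34, 3.41, 4.62 and 4.74 CPM in antibiotics-morphine and ran from 1.71 to 3.52 (median 2.54) CPM in water-saline mice, and its log2 fold change was 0.51 (95% interval 0.032 to 0.98, adjusted p = 0.102). The interval reaches values as large as those of called members. Antibiotics-morphine mouse 5, at 2.02 CPM, was the lowest of its group, and without it the difference was 0.66 (adjusted p = 0.0321) against water-saline and 0.73 (adjusted p = 0.0462) against water-morphine mice. Of 5 relatives, Cebpg was higher in antibiotics-morphine than in water-saline mice at 0.24 (adjusted p = 0.0269) and Ddit3 lower at -0.29 (adjusted p = 0.00103). Over all genes, 13.4% were called higher and 13.6% lower there.

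Nfkbia encodes IkB-alpha, which holds NF-kB in the cytoplasm. The level was 19.1, 21.2, 21.6, 21.99 and 31.1 CPM in antibiotics-morphine mice, where mouse 2 stood apart, and ran from 20.01 to 31.4 (median 22.3) CPM in antibiotics-saline and 14.5 to 22.3 (median 18.1) CPM in water-saline mice. The log2 fold change of antibiotics-morphine against water-saline mice was 0.33 (95% interval 0.039 to 0.62, adjusted p = 0.0809), and it was called without water-saline mouse 4, at 0.39 (adjusted p = 0.0478), by limma voom, at 0.35 (adjusted p = 0.0208), and with the GC and length correction, at 0.42 (adjusted p = 0.0214). Against antibiotics-saline mice the log2 fold change was -0.030 (95% interval -0.32 to 0.26, adjusted p = 0.935). Of 12 other genes of the pathway, Nfkbiz was higher in antibiotics-morphine than in water-saline mice at 0.64 (adjusted p = 0.00273), the kinase adaptor Ikbkg higher at 0.20 (adjusted p = 0.0238) and the kinase Ikbkb lower at -0.25 (adjusted p = 0.00728). Such calls were made for 27.0% of all genes, a share near that of this pathway.

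Ddit4, also called REDD1, restrains mTORC1 under stress and is a known glucocorticoid target. Its level was 51.8, 52.9, 53.2, 56.2 and 81.8 CPM in antibiotics-morphine mice and ran from 46.6 to 66.8 (median 53.7) CPM in water-saline mice. A single mouse, antibiotics-morphine mouse 2, lay above the water-saline range. On the log2 scale the difference was 0.089 (95% interval -0.16 to 0.34, adjusted p = 0.617) against water-saline, 0.24 (95% interval -0.014 to 0.50, adjusted p = 0.227) against water-morphine and -0.073 (95% interval -0.32 to 0.17, adjusted p = 0.792) against antibiotics-saline mice. The last interval ends well below the Arrdc2 and Pla2g3 differences of the same comparison. Among 10 other regulators of mTORC1, Tsc1 at 0.41 (adjusted p = 0.000342) and Sesn2 at 0.36 (adjusted p = 0.0465) were higher in antibiotics-morphine than in water-saline mice and Akt1s1 lower at -0.19 (adjusted p = 0.0133), and of 8 targets of the stress factor ATF4, Phgdh was lower at -0.36 (adjusted p = 0.000911). The same comparison called 27.0% of all genes.

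Wscd1, which encodes a WSC-domain protein related to sulfotransferases, went the other way. Its level was 78.3, 80.3, 81.1, 82.2 and 95.3 CPM in antibiotics-morphine mice and 106, 108, 114, 119 and 119 CPM in water-morphine mice, and ran from 92.4 to 111 (median 103) CPM in antibiotics-saline and 115 to 123 (median 118) CPM in water-saline mice. All antibiotics-morphine mice were below all water mice, and all antibiotics-saline mice were below all water-saline mice, a separation that 1.01% of genes showed for antibiotics alone. Wscd1 was 1.42-fold lower in antibiotics-morphine than in water-saline mice, a log2 fold change of -0.50 ± 0.10 (SE, adjusted p = 0.000317), and the log2 fold change against water-morphine mice was -0.44 ± 0.10 (SE, adjusted p = 0.00403). Against antibiotics-saline mice the log2 fold change was -0.30 (95% interval -0.50 to -0.10, adjusted p = 0.0627), with 4 of 5 mice below the antibiotics-saline range, and it was called by limma voom (adjusted p = 0.00303), on the 2 groups alone (adjusted p = 0.0189), by DESeq2 (adjusted p = 0.0347), with the marker covariates (adjusted p = 0.0461) and without antibiotics-morphine mouse 2 (adjusted p = 0.0416). Wscd1 fell short of a call for antibiotics alone, at -0.20 (95% interval -0.39 to -0.014, adjusted p = 0.367).

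Set side by side, morphine given to antibiotics-treated mice called 2 of the 10 genes against antibiotics-saline mice, Arrdc2 and Pla2g3, both higher, where 5.43% of all genes were called, 2.23% higher and 3.20% lower. The count was 6 with limma voom, which added Rasd1, Klf9 and Errfi1 as higher and Wscd1 as lower. It was 4 with the marker covariates, which added Rasd1 and Wscd1, and 4 on the 2 groups alone, which added Klf9 and Wscd1. Calls over all genes also rose above 5.43% with limma voom and with the covariates, as the counts in the last section show. The larger member counts cannot be read apart from that rise. Ranges separated upward for Pla2g3 and Klf9, as they did for 2.96% of genes. Antibiotics given to morphine-treated mice called 5 genes higher (Arrdc2, Pla2g3, Rasd1, Klf15 and Klf9) and Wscd1 lower against water-morphine mice, with 4.57% of all genes higher and 5.76% lower. The same 5 genes and Wscd1 had separate ranges there, a pattern shown by 6.06% of genes upward and 7.17% downward. These comparisons share the antibiotics-morphine mice, so they are not independent of one another.

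Cell type markers moved with the same groups. In antibiotics-morphine against water-saline mice, 13.4% of all genes were called higher and 13.6% lower. All 8 microglial markers tested were lower in antibiotics-morphine than in water-saline mice, with summed levels of 353 to 422 against 530 to 562 CPM, and none of the 8 was at 0 in any library. Endothelial markers were lower in 6 of 8 cases (215 to 256 against 264 to 290 CPM summed), and 3 of 5 septal markers were higher (64.2 to 97.6 against 44.4 to 56.6 CPM). In whole tissue, fewer cells of a type and less RNA per cell cannot be told apart. Oligodendrocyte markers, given beside the Wscd1 result, were lower in 2 of 8 cases (5044 to 5778 against 5851 to 6794 CPM), and precursor markers in 3 of 5 (248 to 298 against 328 to 358 CPM). With the cortical and septal marker means as covariates, Arrdc2, Pla2g3, Rasd1, Klf15 and Klf9 still passed as higher and Wscd1 as lower in this comparison. Mural markers were lower in 2 of 5 cases (120 to 146 against 174 to 198 CPM) and astrocyte markers in 2 of 8 (Aqp4 and S100b, 3998 to 4439 against 4119 to 4547 CPM). The 1 blood marker that could be tested, Alas2, was also lower, at -1.68 on the log2 scale (adjusted p = 4.76e-05). In antibiotics-morphine against water-morphine mice, Cx3cr1 (microglia) gave -0.51 on the log2 scale (adjusted p = 0.000348). Cdh5 (endothelium) gave -0.43 (adjusted p = 0.00736) and Ugt8a (oligodendrocytes) -0.91 (adjusted p = 5.74e-05) there. Against antibiotics-saline mice Cx3cr1 gave -0.43 (adjusted p = 0.00398) and Cdh5 -0.34 (adjusted p = 0.0468), while Ugt8a was not called. Other markers, among them Csf1r of microglia, were called in neither. The part of microglial, vascular, glial and blood RNA in these results was not tested.

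Morphine in mice with a normal microbiome called none of the 10 genes, and no gene of the 14583, by edgeR's test. The log2 fold changes of the 10 ran from -0.19 to 0.37 with adjusted p of 0.384 to 0.983, none had an unadjusted p under 0.05, and no member's ranges separated (3.45% of all genes separated upward and 2.37% downward). Over all genes, 2220 had an unadjusted p under 0.05, DESeq2 called 334 and limma voom 1323, and neither of these tools called a member. For Klf15 all 5 water-morphine mice lay within the water-saline range. For Rasd1 3 of 5 lay above it, and for Wscd1 3 of 5 lay below. For each of the other 7 genes 1 or 2 mice lay outside. Arrdc2 averaged 10.8 ± 1.46 CPM (SD, n = 5) against 12.4 ± 1.31 CPM (SD, n = 6), and Rasd1 7.38 ± 1.23 CPM (SD, n = 5) against 5.76 ± 0.666 CPM (SD, n = 6).

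Whether the morphine difference itself differed between antibiotics and water mice was tested as an interaction. None of the 10 genes passed, and 0.110% of all genes did (0.0480% with a larger and 0.0617% with a smaller log2 difference under antibiotics). At an unadjusted p under 0.05 there were 2 members, Arrdc2 and Klf9, and 1151 genes in all. Arrdc2 had the largest difference, 1.04 ± 0.28 on the log2 scale (SE, adjusted p = 0.15), and Klf9 gave 0.44 ± 0.19 (SE, adjusted p = 0.536). The Arrdc2 interaction passed by DESeq2 (adjusted p = 0.0474), by limma voom (adjusted p = 0.0159) and when the 2 germ-free groups were left out of the fit (adjusted p = 0.0227).

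Against water-saline mice, germ-free-saline mice had higher levels of 7 of the 10 genes and a lower level of Wscd1, where 18.0% of all genes were called higher and 14.9% lower. The median log2 fold change of the 10 was 0.52 against 0.0099 for all genes. Every germ-free-saline mouse lay above every water-saline mouse for Arrdc2, Rasd1, Klf15, Errfi1 and Cebpd, as was so for 4.79% of genes, and ranges separated downward for none of the 10 and for 4.72% of all. The Rasd1 level ran from 9.54 to 15.9 (median 11.3) CPM and the Klf15 level from 33.7 to 56.8 (median 39.03) CPM in germ-free-saline mice. Their log2 fold changes were 1.06 ± 0.20 (SE, adjusted p = 0.000188) and 0.65 ± 0.11 (SE, adjusted p = 5.3e-05). The Klf15 group mean was highest here, at 41.2 CPM, but without germ-free-saline mouse 5, at 56.8 CPM, it was 38.1 CPM, below the 38.8 CPM of antibiotics-morphine mice.

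Cebpd ran from 3.83 to 6.22 (median 4.14) CPM and Nfkbia from 22.2 to 26.9 (median 23.6) CPM in germ-free-saline mice. These 2 genes, not called for antibiotics with morphine, were called for germ-free status, at 0.78 ± 0.23 (SE, adjusted p = 0.00936) and 0.40 ± 0.14 (SE, adjusted p = 0.0263). The Cebpd call was lost with the replicate block, at 0.71 (adjusted p = 0.054). The Nfkbia call was lost with the block, at 0.29 (adjusted p = 0.13), with the marker covariates, at 0.41 (adjusted p = 0.0523), and without water-saline mouse 3, 8 or 9 or germ-free-saline mouse 2 (adjusted p = 0.0514 to 0.0684). Errfi1 gave 0.35 ± 0.10 (SE, adjusted p = 0.0081), and its 6 germ-free-saline levels ran from 28.5 to 36.9 (median 33.04) CPM.

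Arrdc2 ran from 14.7 to 29.1 (median 16.4) CPM and Pla2g3 from 1.16 to 3.47 (median 2.22) CPM in germ-free-saline mice. Their log2 fold changes against water-saline mice were 0.69 ± 0.19 (SE, adjusted p = 0.00687) and 0.83 ± 0.24 (SE, adjusted p = 0.00959), and neither passed with the marker covariates (adjusted p = 0.0745 and 0.0906). Wscd1 gave -0.27 ± 0.093 (SE, adjusted p = 0.0228), and the germ-free-saline mice spread from 73.8 to 133 (median 97.4) CPM. The Wscd1 call was lost without mouse 4 or 6 of that group (adjusted p = 0.0708 and 0.0817). With all libraries kept, it was lost after a correction for GC content and transcript length, at -0.10 (adjusted p = 0.388). It was also lost on the 2 groups alone (adjusted p = 0.1). Oligodendrocyte marker sums in these 6 mice spread from 3753 to 10781 CPM and 4 of the 7 pituitary and hypothalamic markers that could be tested were higher. Summed over all 9 markers of that list, 2 of them untested, levels were 14.7 to 123 CPM against 13.7 to 55.3 CPM in water-saline mice. Endothelial markers were lower in 5 of 8 cases (154 to 265 against 264 to 290 CPM summed) and mural markers in 3 of 5 (93.3 to 140 against 174 to 198 CPM). Calls over all genes in this comparison were 18.0% higher and 14.9% lower. The part of these cell types in the germ-free results was not tested. Klf9, at 0.29 (95% interval 0.024 to 0.55, adjusted p = 0.0823), and Ddit4, at 0.25 (95% interval 0.016 to 0.49, adjusted p = 0.0899), were not called.

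Morphine in germ-free mice called none of the 10 genes, with log2 fold changes from -0.44 to 0.082 and adjusted p of 0.698 to 0.999. By edgeR, 1 gene of all was called (0.00686%) and 961 had an unadjusted p under 0.05, of which 1 was a member, Klf9. DESeq2 and limma voom called no member either. Between the 2 groups given morphine, germ-free mice had lower levels than antibiotics mice of Arrdc2 at -0.75 ± 0.20 (SE, adjusted p = 0.00686), Pla2g3 at -0.86 ± 0.23 (SE, adjusted p = 0.00688), Rasd1 at -0.60 ± 0.20 (SE, adjusted p = 0.0242) and Klf9 at -0.45 ± 0.14 (SE, adjusted p = 0.0173) on the log2 scale. In this comparison 28.0% of all genes were called, 13.4% lower and 14.7% higher. The ranges separated downward for Klf9 and Pla2g3, as for 9.22% of genes, and upward for no member and 7.87% of genes. The Klf9 level in germ-free-morphine mice was 132, 178, 183, 189 and 195 CPM and that of Pla2g3 2.06, 2.14, 2.23, 2.33 and 2.73 CPM.

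All 7 cortical markers and all 8 microglial markers also differed between these 2 groups, the first lower (8.78 to 12.3 against 154 to 979 CPM summed) and the second higher (470 to 570 against 353 to 422 CPM) in germ-free mice. With the cortical and septal covariates Klf9 gave -0.22 (adjusted p = 0.28) and Rasd1 -0.43 (adjusted p = 0.208), neither called, while Arrdc2 and Pla2g3 kept their calls. Rasd1 also lost its call with the replicate block, at -0.52 (adjusted p = 0.0593), and without antibiotics-morphine mouse 3 or 4 or germ-free-morphine mouse 2 (adjusted p = 0.058 to 0.0976). Klf9 lost its call without germ-free-morphine mouse 5, the lowest of that group, at -0.36 (adjusted p = 0.0627).

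The morphine difference was smaller in germ-free than in antibiotics mice for Arrdc2, by -0.998 ± 0.28 on the log2 scale (SE, adjusted p = 0.049), the one member called for this interaction where 2.21% of all genes were called, 0.987% lower and 1.22% higher. It stood just inside the threshold, and leaving out any 1 of 16 libraries ended the call (adjusted p = 0.0512 to 0.095, log2 difference -1.17 to -0.85 over every library left out). The call was also lost with upper-quartile factors (adjusted p = 0.0613), without the low-count filter (adjusted p = 0.0657), with the replicate block (adjusted p = 0.0554) and on the groups compared alone (adjusted p = 0.146). Klf9 gave -0.67 ± 0.19 (SE, adjusted p = 0.0534), just outside the threshold, and was called by DESeq2 (adjusted p = 0.0236), by limma voom (adjusted p = 0.0278), with upper-quartile factors (adjusted p = 0.0476), with the marker covariates (adjusted p = 0.05) and without any 1 of 4 libraries, among them germ-free-saline mouse 5 (adjusted p = 0.013).

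**Figure D2:**
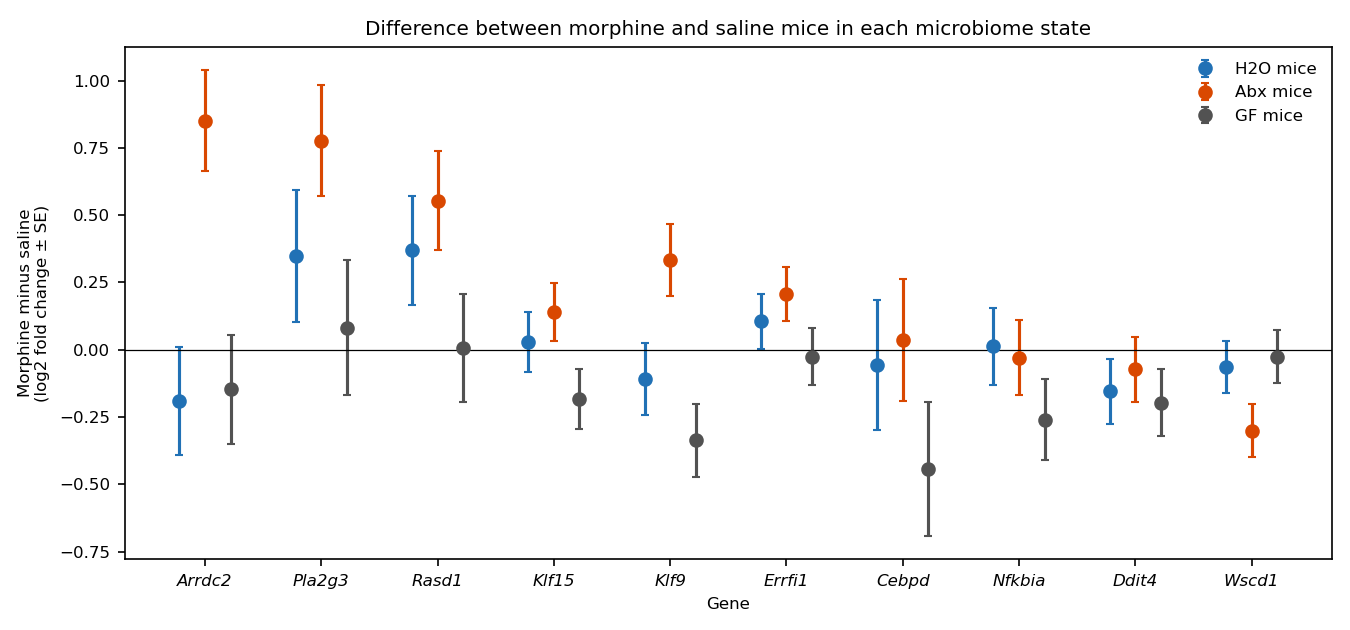
Morphine minus saline, log2 fold change ± SE (vertical axis, log2 scale), for each gene in water, antibiotics and germ-free mice. For Arrdc2 the antibiotics value of 0.85 stands above values of -0.19 in water and -0.15 in germ-free mice, Klf9 is also highest in antibiotics mice, and for Ddit4 the 3 values lie close together.

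Read from group to group, the order of the levels differed between the genes. Arrdc2, Pla2g3, Rasd1, Klf9 and Errfi1 had their highest mean in antibiotics-morphine mice, and Klf15, Ddit4, Nfkbia and Cebpd in germ-free-saline mice. The lowest mean was in water-morphine mice for Arrdc2, Klf9, Ddit4 and Cebpd, in water-saline mice for Pla2g3, Rasd1, Klf15, Errfi1 and Nfkbia, and in antibiotics-morphine mice for Wscd1. With 1 library left out the highest group changed for Klf15 alone, as given above. The lowest changed between the 2 water groups for Klf15 (without water-saline mouse 3 or water-morphine mouse 3), for Nfkbia (without any of 7 libraries) and for Cebpd (without any of 3). Neighbours in these orders mostly overlapped. The exceptions were Pla2g3, Rasd1 and Klf15. Pla2g3 stood at 4.17 ± 0.894 CPM (SD, n = 5) in antibiotics-morphine mice, apart from the next group, antibiotics-saline mice, at 2.43 ± 0.574 CPM (SD, n = 6), although germ-free-saline mice 2 and 5, at 3.47 and 3.21 CPM, lay inside the antibiotics-morphine range. For Rasd1 and Klf15 water-morphine mice lay below the next group. Rasd1 stood at 7.38 ± 1.23 CPM (SD, n = 5) in water-morphine against 12.001 ± 2.43 CPM (SD, n = 6) in germ-free-saline mice, although antibiotics-saline mice reached down into the water-morphine range. Klf15 stood at 26.7 ± 2.12 CPM (SD, n = 5) in water-morphine against 35.2 ± 4.32 CPM (SD, n = 6) in antibiotics-saline mice.

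A list of 18 other genes known to be induced by glucocorticoids, all tested, gives the setting. In antibiotics-morphine against water-saline mice 14 were higher (13.4% of all genes were) and none lower, with a median log2 fold change of 0.64. Against antibiotics-saline mice 7 were higher (2.23% of all genes were), with a median of 0.33. The largest were Plin4, a lipid droplet protein, at 4.22 (adjusted p = 9.17e-09), Hif3a, a hypoxia-inducible factor subunit, at 2.49 (adjusted p = 3.18e-08), the sulfotransferase Sult1a1 at 1.50 (adjusted p = 3.03e-07) and Fkbp5, a co-chaperone of the receptor, at 1.05 (adjusted p = 1.62e-07) on the log2 scale. Of Arrdc2, Pla2g3 and Rasd1, each lay between Fkbp5 and Hif3a in size. For antibiotics alone 2 of the 18 were higher, for morphine in water mice none, and for germ-free against water mice under saline 12. The shares of all genes called higher were 0.0617%, 0% and 18.0% in that order. This list was drawn up with results of these libraries known, so it is not independent evidence of a direction. Of 8 genes for the steroid receptors, the enzyme that regenerates active corticosterone and receptor cofactors, none was called in these comparisons among conventional mice.

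Neither receptor gene was called in any comparison among conventional mice. The log2 fold change of the glucocorticoid receptor gene Nr3c1 was -0.034 (adjusted p = 0.725) in antibiotics-morphine against water-saline mice, -0.048 (adjusted p = 0.73) against antibiotics-saline mice and -0.085 (adjusted p = 0.465) against water-morphine mice. It was 0.014 for antibiotics alone, 0.051 for morphine alone, 0.064 for germ-free against water mice under saline, -0.11 for morphine in germ-free mice and -0.014 between the germ-free and antibiotics mice given morphine, with no call. The mineralocorticoid receptor gene Nr3c2 gave 0.13 (adjusted p = 0.435), 0.13 (adjusted p = 0.58) and -0.042 (adjusted p = 0.871) in the first 3 of these comparisons. It was lower in germ-free than in antibiotics mice given morphine, at -0.43 ± 0.12 (SE, adjusted p = 0.00948), and gave -0.15 (adjusted p = 0.326) under saline between germ-free and water mice.

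Genes of neuronal activity were measured beside the members because Rasd1 and some others also answer to activity. Of 8 such genes, 3 were higher in antibiotics-morphine than in water-saline mice, where 13.4% of all genes were higher. They were Egr2 at 1.30 (adjusted p = 0.0132), Nr4a1 at 1.17 (adjusted p = 0.00703) and Fosb at 0.51 (adjusted p = 0.0386). None of the 8 was called against antibiotics-saline or water-morphine mice. The same 3 genes, and 18.0% of all genes, were higher in germ-free-saline than in water-saline mice, where Rasd1 was also higher. Egr2 gave 1.42 (adjusted p = 0.00536), Nr4a1 1.29 (adjusted p = 0.00231) and Fosb 1.06 (adjusted p = 7.14e-05) there. Between germ-free and antibiotics mice given morphine, Fosb was the one activity gene called, higher in germ-free mice at 0.70 (adjusted p = 0.00679). The part of neuronal activity in the Rasd1 levels was not tested.

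The genes whose level most resembled each member over all 33 libraries, by Pearson correlation of log2 CPM, are given as a description, since the libraries share their groups and markers. For Arrdc2 they were Pnpla2 (0.90), Sult1a1 (0.90) and Plin4 (0.86), for Pla2g3 Plin4 (0.84), Itgad (0.81) and Hif3a (0.80) and for Rasd1 Hif3a (0.83), Sult1a1 (0.81) and Tollip (0.80). For Klf15 they were Adipor2 (0.86), Tekt4 (0.86) and Sdc4 (0.84), for Klf9 Camk1d (0.89), Adcy9 (0.88) and Ippk (0.85) and for Errfi1 Ranbp9 (0.76), Spry4 (0.73) and Rin2 (0.73). Cebpd was nearest to Sgk1 (0.75), Spry4 (0.73) and Spsb1 (0.68), Nfkbia to Sgk1 (0.72), Plekhf1 (0.66) and Pim3 (0.65) and Ddit4 to Gucy2f (0.70), Sgk1 (0.69) and Pim3 (0.65). Among the genes nearest to Wscd1 were Unc5b (0.88) and Frmd8 (0.88). Genes of the 18-gene list thus appear beside Arrdc2, Pla2g3, Rasd1, Ddit4, Nfkbia and Cebpd, and not among the 3 nearest of Wscd1, Klf9, Klf15 or Errfi1.

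A separate question was whether the genes varied among mice of the same group along with that list. For each library the member's log2 CPM minus its group mean was compared with the mean of the 18 genes minus its group mean, by a two-sided permutation test within groups (100000 resamples) adjusted over the 10 genes. Arrdc2 (r = 0.697, rho = 0.684, adjusted permutation p = 0.0003), Klf15 (r = 0.665, rho = 0.607, adjusted p = 0.0003), Cebpd (r = 0.526, rho = 0.606, adjusted p = 0.0056) and Errfi1 (r = 0.508, rho = 0.556, adjusted p = 0.02) varied with the list. Without the 2 libraries farthest from the median of the list, r was 0.665, 0.698, 0.632 and 0.558 in that order. Cebpd passed this test although it was not called for the combined treatment. Rasd1 (r = 0.440, rho = 0.462, adjusted p = 0.13), Pla2g3 (r = 0.367, rho = 0.357, adjusted p = 0.099) and Nfkbia (r = 0.283, rho = 0.354, adjusted p = 0.17) did not pass. Klf9 (r = -0.0926, rho = -0.00635), Wscd1 (r = 0.0894, rho = -0.0849) and Ddit4 (r = 0.0738, rho = 0.0896) were near 0, each with an adjusted p of 0.69. In the 22 conventional libraries alone only Arrdc2 passed by Pearson's r, at 0.763 (adjusted permutation p = 0.0088), and by rank it did not (rho = 0.649, adjusted permutation p = 0.075). Klf15, Errfi1 and Cebpd gave r of 0.530, 0.497 and 0.335 (adjusted p = 0.058, 0.14 and 0.23). Marker levels and depth also varied among libraries of 1 group, and their part in these correlations was not tested. The permutation test was not run over all genes, so the share of genes that vary with the list is not known. The number of members that passed is therefore not a result particular to them.

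**Figure D3:**
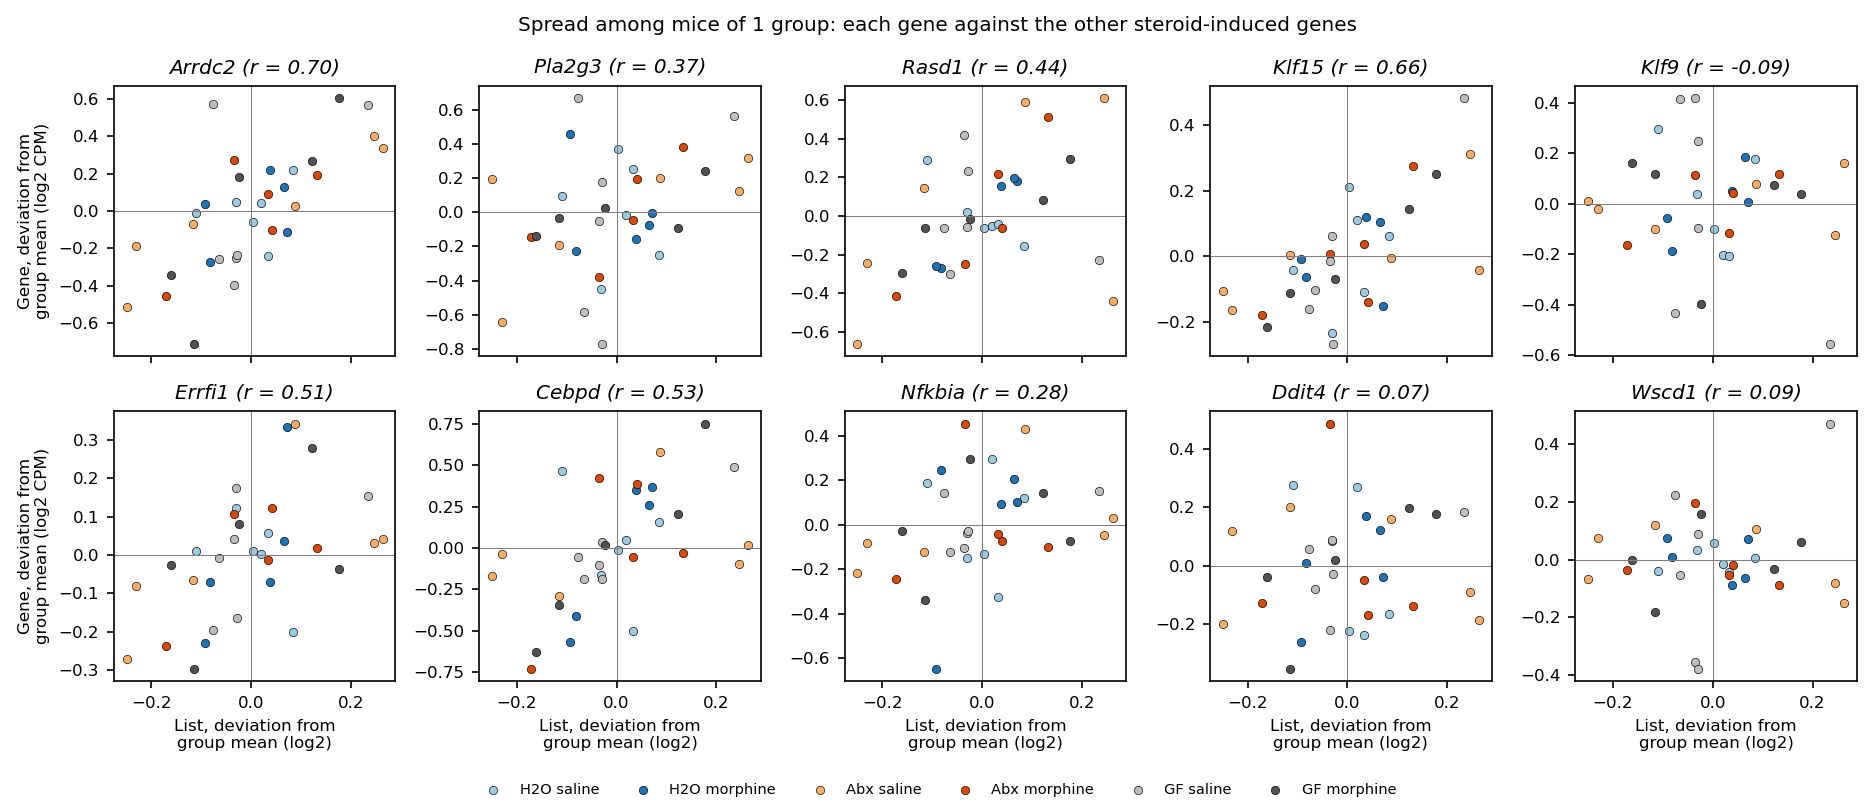
Deviation of each gene from its group mean (vertical axis, log2 CPM) against the deviation of the mean of 18 other glucocorticoid-induced genes (horizontal axis, log2 CPM), 1 point per library over 33 libraries. The points of Arrdc2 and Klf15 slope upward with r of 0.697 and 0.665, and those of Klf9, Wscd1 and Ddit4 do not.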

How the data were processed

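Polyadenylated RNA of 33 mouse nucleus accumbens samples was made into SMARTer cDNA libraries, per the labels' protocols. The authors deposited raw read counts per gene, not normalized; the submitters' processing notes name FastQC, STAR 2.4.0 and edgeR, while the counting program, build and strand were not given in the sources used here. From 24061 gene rows, 5 tally rows and 27 names turned into dates were left out. Reads tallied in no gene were 19.4% to 35.5% of a library.

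The 14583 genes kept by filterByExpr (minimum count 10) were scaled by TMM and fitted with edgeR 4.0.16 (R 4.3.3, glmQLFit and glmQLFTest, two-sided, Benjamini-Hochberg over all genes, threshold 0.05) as 6 group means over all 33 libraries, with 27 residual degrees of freedom. The biological coefficient of variation was 0.128. Intervals are the log2 fold change with its SE on those degrees of freedom. The quasi-likelihood test uses moderated degrees of freedom, so an interval limit close to 0 and the unadjusted p can disagree. CPM values use TMM library sizes; log2 CPM adds a prior count of 2. The fit was tested on simulated counts. Within groups, libraries correlated at 0.960 to 0.993 and no 2 agreed within sampling noise. The labels do not say that libraries sharing a number share a litter or day, and over 66 such pairs the deviations correlated from -0.47 to 0.46, so numbers were not taken as pairs.

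Alternatives were other scaling factors, no filter, DESeq2 1.42.0, limma 3.58.1 (voom with quality weights), fits on the groups compared alone, a replicate block, cortical and septal marker covariates, each library left out and, chosen after seeing the data, a GC and length correction. Named genes were the 10 members, at most 4 called genes of each related list and the 3 genes most like each member, of which 1 is not reported here. The members and lists were chosen with earlier results of these data known. That the libraries are separate animals was taken from the numbers in their titles, which name no animal, so p-values measure the spread between these libraries.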

Additional observations from a re-analysis of the deposited data

Results flagged for a closer look

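Of 60 sets of libraries (10 genes in 6 groups), 12 held a library whose distance from its nearest neighbour was large for the range of its group, where chance gives about 1 in 20. In antibiotics-morphine mice these were mouse 2 for Wscd1 (95.3 CPM), Ddit4 (81.8 CPM) and Nfkbia (31.1 CPM), each the highest of the group. In antibiotics-saline mice they were mouse 5 for Nfkbia (31.4 CPM) and Cebpd (5.27 CPM) and mouse 4 for Klf15 (43.5 CPM), again the highest. In germ-free-saline mice mouse 5 was the highest for Klf15 (56.8 CPM) and Cebpd (6.22 CPM), and in germ-free-morphine mice mouse 5 was the lowest for Klf9 (132 CPM). In water-morphine mice mouse 6 was the highest for Pla2g3 (2.16 CPM) and the lowest for Nfkbia (11.5 CPM), and in water-saline mice mouse 5 was the highest for Rasd1 (7.04 CPM). Ddit4, Nfkbia and Wscd1 without antibiotics-morphine mouse 2 are among the values with 1 library left out.

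The morphine difference of Arrdc2 was smaller in germ-free than in antibiotics mice by a test of the difference itself, at -0.998 on the log2 scale (edgeR, adjusted p = 0.049). The call was lost without any 1 of 16 of the 22 libraries compared (adjusted p = 0.0512 to 0.095), and with upper-quartile factors, no low-count filter, the replicate block or the groups alone (adjusted p = 0.0554 to 0.146).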

How the results depend on the processing

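Library depth limits Pla2g3 and Cebpd most, since they rest on 9 to 68 and 13 to 61 reads per library, and germ-free libraries were shallower than nearly all others. Over settings other than 1 library left out, 455 of 504 values kept their direction and side of the threshold, and 607 of 664 with 1 library left out.

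The number of the 10 genes called in antibiotics-morphine against antibiotics-saline mice was 2, and became 6 with limma voom, 4 with the marker covariates, 4 on the groups compared alone and 1 to 3 with 1 library left out. For antibiotics alone it was 1, and became 3 with DESeq2, with limma voom and with the GC and length correction, 0 with the marker covariates, and 1 to 2 with 1 library left out. Between germ-free and antibiotics mice given morphine it was 4, and 2 with the marker covariates. For the antibiotics minus water interaction it was 0, and 1 with DESeq2, with limma voom and on the groups alone. For the germ-free minus antibiotics interaction it was 1, and became 2 with DESeq2, limma voom or the marker covariates, 0 without the low-count filter or on the groups alone, and 0 to 2 with 1 library left out. Deviations along with the 18-gene list, not tested over all genes, passed for 4 members. They passed for 1 without the germ-free libraries and for 5 without Plin4 and Hif3a in the list. The cause of these shifts was not tested.

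With the replicate block, which the labels do not support as a pairing, the count for antibiotics alone was 0 and that for the germ-free minus antibiotics interaction 0. The block also turned Ddit4 in antibiotics-morphine against water-saline mice to -0.066 and Klf9 for antibiotics alone to -0.027, both uncalled before and after. Nfkbia in antibiotics-morphine against antibiotics-saline mice, -0.030, became 0.017 with limma voom and 0.029 with the GC and length correction, and ran from -0.16 to 0.068 with 1 library left out. In the same comparison Cebpd ran from -0.081 to 0.19, and Ddit4 against water-saline mice from -0.057 to 0.14.

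Counts over all genes moved more than those of the members. For antibiotics alone 17 genes became 4 with the block, 1 with the marker covariates, 51 on the groups alone, 100 with DESeq2, 180 with limma voom, 34 with the GC correction and 4 to 31 with 1 library left out. For morphine in water mice 0 became 989 on the groups alone, 334 with DESeq2, 1323 with limma voom and 1 with the marker covariates, and for morphine in germ-free mice 1 became 0 with the block, the covariates, the groups alone or limma voom. In antibiotics-morphine mice 3943 against water-saline became 6181 with limma voom. Against antibiotics-saline mice 792 became 2439 with limma voom, 1268 with the covariates and 277 to 831 with 1 library left out, and against water-morphine mice 1507 became 3548 with limma voom and 2395 on the groups alone. Germ-free against water mice under saline went from 4807 to 2613 with the GC correction, and germ-free against antibiotics mice under morphine from 4089 to 2119 with the covariates. The antibiotics minus water interaction went from 16 to 9 without the filter or with the block, 10 with the covariates, 59 on the groups alone, 68 with DESeq2, 170 with limma voom, 47 with the GC correction and 3 to 21 with 1 library left out. The germ-free minus antibiotics interaction went from 322 to 140 without the filter, 207 with the block, 43 on the groups alone, 638 with DESeq2, 609 with limma voom, 191 with the GC correction and 78 to 802 with 1 library left out. Upper-quartile scaling moved the share of calls that were higher from 54.7% to 42.5% for germ-free against water mice and from 55.3% to 68.4% for the germ-free minus antibiotics interaction, where the GC correction gave 66.5%; for the antibiotics minus water interaction the GC correction moved it from 43.8% to 29.8%.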
